A study of Homo sapiens with 4 samples.

Results

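NEAT1, MALAT1 and NORAD are long non-coding RNAs (lncRNAs) that many human cells express at high levels, and they were followed here through an RNA immunoprecipitation and sequencing (RIP-seq) experiment on the kinase AKT1. MDA-MB-231 breast cancer cells had been transfected with a plasmid for Flag-tagged wild-type AKT1 (Flag-AKT1 WT) or for the E17K mutant (Flag-AKT1 E17K). For each plasmid, 1 library was made of the RNA that an anti-Flag antibody brought down and 1 of the input lysate, 4 libraries in all, and rRNA was depleted. A peak list was deposited for each plasmid by the authors, with how many immunoprecipitate and control reads fell in every peak, and the control was read as the input library that the sample labels name. The cells keep their own AKT1 beside the plasmid's, and MDA-MB-231 is a single established line. The members are the peaks that overlap the span of NEAT1, MALAT1 or NORAD by at least 1 bp. These were 8 of the 4838 peaks of the Flag-AKT1 E17K list and 0 of the 808 peaks of the Flag-AKT1 WT list.

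NEAT1 is the RNA scaffold of paraspeckles, nuclear bodies that form around its long isoform, and a shorter isoform shares its 5′ part. MALAT1 stays in the nucleus, where it gathers at the speckles that store splicing factors, and its 3′ end is freed by cleavage next to a small tRNA-like RNA. NORAD is mostly cytoplasmic and carries many binding sites for PUM2, an RNA-binding protein that represses mRNAs. The comparison of nuclear NEAT1 and MALAT1 with cytoplasmic NORAD asks whether an RNA's place in the cell went with its recovery on Flag-AKT1.

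The 8 peaks were 3 at NEAT1, 2 at MALAT1 and 3 at NORAD. The submitters' processing notes name hg18, but on GRCh38.p14 RefSeq gene spans took in 98.9% of the Flag-AKT1 E17K list, and 61.7% of it once shifted by 1000000 bp, so GRCh38 positions were used. The strand label of a peak was opposite to the strand of its gene in 2997 of 3010 Flag-AKT1 E17K peaks (99.6%) that lay in 1 gene span of known strand, and in 99.7% of such Flag-AKT1 WT peaks. The members followed this. NORAD is transcribed from the minus strand of chromosome 20 and its peaks carry the plus label, while MALAT1 is transcribed from the plus strand of chromosome 11 and its peaks carry the minus label. The NEAT1 peaks carry the minus label as well. Both MALAT1 peaks also overlap the span of TALAM1, its antisense RNA, and with labels opposite to the gene strand they fall on the side of MALAT1.

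The start sites of MALAT1 and NORAD, from which distances are counted below, are shown to fix where each transcript begins and on which strand. The sequences are from RefSeq on GRCh38.p14 and give, 5′ to 3′, the 20 bases before the start in lower case and the first 50 transcribed bases in capitals. The table holds 2 starts for MALAT1, 1 for NORAD and 0 for NEAT1, whose distances are counted from the lower end of its span.
MALAT1, first start, chr11:65497718-65497787, plus strand: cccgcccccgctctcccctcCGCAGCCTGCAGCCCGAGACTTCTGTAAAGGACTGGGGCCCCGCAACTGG
MALAT1, second start, chr11:65499025-65499094, plus strand: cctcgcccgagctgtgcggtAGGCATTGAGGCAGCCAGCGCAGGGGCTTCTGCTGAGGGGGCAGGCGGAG
NORAD, chr20:36050911-36050980, minus strand: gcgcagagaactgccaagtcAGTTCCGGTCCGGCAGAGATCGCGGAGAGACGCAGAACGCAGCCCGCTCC
The MALAT1 peak nearest to these began 1608 bp after the first start and 301 bp after the second, and the nearest NORAD peak began 835 bp after its start. No peak reached a start site of these transcripts.

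At NEAT1 the immunoprecipitate outnumbered the input in all 3 peaks, as in most of the list, where the lower quartile of the ratio was 1.83. The ratio was far higher in the 3′ NEAT1 peak than in the other NEAT1 peaks. The fold of a peak divides its immunoprecipitate reads by its input reads with no scaling to library size and with inputs under 3 reads set to 3, and its 95% interval is exact (Clopper-Pearson) and covers counting error only. The 5′ peak (chr11:65423701-65424110), 903 to 1312 bp into the span, held 63 immunoprecipitate reads and 31 input reads, which is a fold of 2.03 (interval 1.30 to 3.23). The middle peak (chr11:65427391-65429030), 4593 to 6232 bp into the span, held 133 and 64 reads, a fold of 2.08 (interval 1.53 to 2.85). The 3′ peak (chr11:65443791-65444200), 20993 to 21402 bp into the span, held 37 and 4 reads, a fold of 9.25 (interval 3.32 to 35.7). The first 2 folds were almost equal and their intervals took in the list median of 2.18, whereas the interval of the 3′ peak lay above the list quartiles of 1.83 and 2.75. The 5′ peak lies in the part that both isoforms share, and the other peaks lie where the long, paraspeckle-forming isoform alone is known to run. The 3′ peak ended 1340 bp before the end of the span and 257 bp before the miRNA gene MIR612. Its fold was the highest among the 4529 peaks with more than 3 input reads. The other 309 peaks have folds that are lower bounds or rest on 3 input reads, and 68 of them had a higher ratio of the reads as they stand. It was also the highest among the 175 peaks of chromosome 11 with the minus label, 0 of which had 3 or fewer input reads, and where the next fold, at PPP6R3, was 7.33 on 44 and 6 reads.

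Reads per kb of peak showed that the 3′ NEAT1 peak stood out by its input. Its immunoprecipitate density was 90.2 reads per kb, between 81.1 for the middle peak and 154 for the 5′ peak. Its input density was 9.76 reads per kb, compared to 39.0 in the middle peak and 75.6 in the 5′ peak. A peak with 37 immunoprecipitate reads at the list median would have 17 input reads, and this one had 4. Its input density was the lowest of the 175 peaks of its chromosome and label (median 48.8 reads per kb), while its immunoprecipitate density was at their percentile 34.3. The 3′ peak supplied 15.9% of the NEAT1 immunoprecipitate reads and 4.04% of its input reads. Between the middle and the 3′ peak, 14760 bp of NEAT1 held no peak, and for that stretch the lists give no reads at all.

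At MALAT1 the 5′ peak had a fold near the list median and the 3′ peak one just below the lower quartile of 1.83. The 5′ peak (chr11:65499346-65499960), 1608 to 2222 bp into the span, held 55 immunoprecipitate reads and 26 input reads, which is a fold of 2.12 (interval 1.30 to 3.51). The 3′ peak (chr11:65503856-65504470), 6118 to 6732 bp into the span, held 80 and 44 reads, a fold of 1.82 (interval 1.24 to 2.69). The 3′ peak was the denser in both libraries, with 130 immunoprecipitate and 71.5 input reads per kb against 89.4 and 42.3 in the 5′ peak. Neither overlapped the tRNA-like mascRNA at the 3′ end, which begins 1646 bp beyond the last peak. The odds ratio of the 5′ to the 3′ peak, 1.16 with an interval of 0.618 to 2.21, allows a difference in either direction.

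At NORAD the 3 peaks were 860, 1290 and 430 bp wide from 5′ to 3′, with the lowest fold in the middle of the transcript. The 5′ peak (chr20:36049266-36050125), 835 to 1694 bp into the span, held 138 immunoprecipitate reads and 60 input reads, which is a fold of 2.30 (interval 1.69 to 3.17). The middle peak (chr20:36046901-36048190), 2770 to 4059 bp into the span, held 211 and 114 reads, a fold of 1.85 (interval 1.47 to 2.35). The 3′ peak (chr20:36046041-36046470), 4490 to 4919 bp into the span, held 95 and 39 reads, a fold of 2.44 (interval 1.66 to 3.63). All 3 intervals overlapped and all took in the list median. In reads per kb of peak, the immunoprecipitate had 160, 164 and 221 from 5′ to 3′ and the input 69.8, 88.4 and 90.7, so both libraries were densest towards the 3′ end. The peaks covered 48.3% of the NORAD span, 14.0% of MALAT1 and 10.8% of NEAT1. The widths of the peaks are whole multiples of 205 bp on this label of chromosome 11 and of 215 bp on that of chromosome 20, and nothing finer than these steps can be read from the lists.

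The reads of each member were set against those of the rest of the list in Fisher's exact test (two-sided, Benjamini-Hochberg adjusted over the 4838 peaks), a test between these 2 libraries that says nothing of conditions. At an adjusted p under 0.05, 0 of the 8 peaks were called, and over the whole list 0.0827% were called higher and 0.186% lower. The 3′ NEAT1 peak came nearest, with an unadjusted p of 7.22e-04 and an adjusted p of 0.116 in Fisher's exact test, and its adjusted p ran from 0.157 to 0.239 under the other ways of testing. It was the 1 member with an unadjusted p under 0.05, where 6.72% of the list lay on the higher side and 2.07% on the lower side. The other 7 peaks had adjusted p-values from 0.851 to 1 in the same exact test. By fold they ranged from percentile 24.3 to percentile 63.9. At a fold of at least 4 there was 1 member, the 3′ NEAT1 peak, and 8.54% of the list. Over the 8 peaks the median fold was 2.10, compared to 2.18 over the list, and 3 of the 8 were above the list median. Over the whole list the squared deviation from 1 common ratio averaged 1.89 times its binomial variance, and 1.36 times without the 5 peaks of AKT1, the gene that the plasmid carries, so these p-values are smaller than counting error with this extra spread would give.

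**Figure D1:**
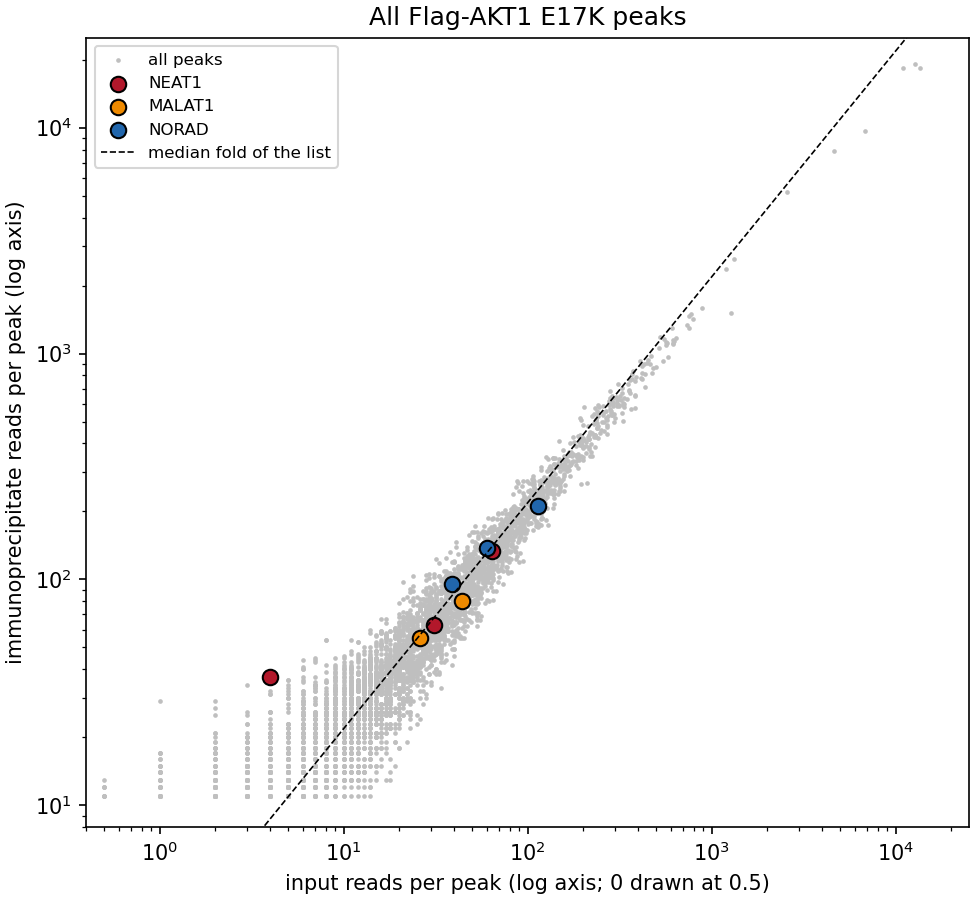
Immunoprecipitate against input reads of the 4838 Flag-AKT1 E17K peaks, both on log axes, with an input of 0 drawn at 0.5, the members in colour and the median fold of 2.18 as a dashed line. Of the 8 member peaks 7 lie along the line with the bulk of the list, and the 3′ NEAT1 peak, at 37 and 4 reads, lies above it.

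Variation along each transcript was tested by comparing each peak with the other peaks of its gene, which does not depend on library totals. This test was run for all 4392 pairs of a peak and a gene with at least 2 peaks of 1 strand label. At an adjusted p under 0.05, 0 of the 8 member peaks differed from the rest of their transcript, and 0.0911% of all pairs were called higher and 0.0455% lower. Against the other NEAT1 peaks, which had 196 immunoprecipitate and 95 input reads together (fold 2.06), the 3′ peak had an odds ratio of 4.48 (interval 1.54 to 17.8). Its unadjusted p was 0.00179 and its adjusted p 0.381 in Fisher's exact test, and 0.371 to 0.381 under the alternatives. It was again the 1 member with an unadjusted p under 0.05, compared to 2.41% of all pairs on the higher side and 2.8% on the lower side. Against the other NORAD peaks the odds ratios were 1.15 (interval 0.792 to 1.68) for the 5′ peak, 0.786 (interval 0.559 to 1.11) for the middle peak and 1.21 (interval 0.790 to 1.89) for the 3′ peak. The middle peak of NORAD was therefore not told apart from the other NORAD peaks, and its interval, which covers counting error only, ran from 0.559 to 1.11.

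Summed over their peaks, the 3 lncRNAs had folds from 1.93 to 2.35, and none was called against the rest of the list. NEAT1 had 233 immunoprecipitate and 99 input reads, a fold of 2.35 (interval 1.85 to 3.01). NORAD had 444 and 213 reads, a fold of 2.08 (interval 1.77 to 2.47), and MALAT1 had 135 and 70, a fold of 1.93 (interval 1.43 to 2.61). The order by fold was NEAT1, NORAD and MALAT1, with overlapping intervals for every neighbour in it. Against all other peaks the odds ratios were 1.21 (interval 0.95 to 1.54) for NEAT1, 1.07 (interval 0.906 to 1.26) for NORAD and 0.989 (interval 0.736 to 1.34) for MALAT1. Their adjusted p-values over the 1936 genes with a peak were 0.488, 0.796 and 1 in Fisher's exact test. Of the 3 genes 0 were called, while of the 1936 genes 3% were called higher and 0.207% lower. At an unadjusted p under 0.05 there were again 0 of the 3, and 12% of all genes lay on the higher side and 2.01% on the lower side. Without its 3′ peak, a setting chosen after the values were seen, the odds ratio of NEAT1 was 1.06.

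Nuclear and cytoplasmic lncRNAs were then compared directly. NEAT1 and MALAT1 together had 368 immunoprecipitate and 169 input reads (fold 2.18), and NORAD had 444 and 213 (fold 2.08). The odds ratio was 1.04 with an interval of 0.812 to 1.34 (p = 0.755, Fisher's exact test, two-sided). The nuclear pair was thus within the counting error of NORAD. The interval covers counting error only, in the called peaks of these genes, and leaves out the extra spread of the list. It therefore sets no limit on how nuclear and cytoplasmic lncRNAs differ in general. The direction rested on the 3′ NEAT1 peak: without it the ratio of the folds was 0.962. MALAT1 alone was at 0.925 of NORAD and NEAT1 alone at 1.13. The study's methods take the supernatant of a lysate spun at high speed as the starting material of both libraries, and how much nuclear RNA it held was not measured.

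Summed per gene, the 3 lncRNAs differed more in read density than in fold, and NORAD was the densest. Over its peaks NORAD had 172 immunoprecipitate and 82.6 input reads per kb, compared to 110 and 56.9 for MALAT1 and 94.7 and 40.2 for NEAT1. By immunoprecipitate density NORAD ranked 619, MALAT1 992 and NEAT1 1137 of the 1936 genes with a peak. The 3 NORAD peaks had 160 to 221 immunoprecipitate reads per kb and the 5 nuclear peaks 81.1 to 154, with a list median of 102. In the input the NORAD peaks had 69.8 to 90.7 and the nuclear peaks 9.76 to 75.6, with a list median of 48.8. The chromosome labels on which these genes lie moved the same way. The 57 peaks of chromosome 20, all with the plus label, had medians of 163 immunoprecipitate and 79.1 input reads per kb, and the 175 peaks of chromosome 11 with the minus label had 97.6 and 48.8. The part of the chromosome label in the difference between NORAD and the nuclear lncRNAs was not tested. Within their own label, the NORAD peaks lay at the percentiles 47.4, 52.6 and 84.2 of immunoprecipitate density from 5′ to 3′. The NEAT1 peaks lay at 92.0, 20.0 and 34.3, and the MALAT1 peaks at 30.9 and 79.1. Reads per kb of a peak measure the peaks alone and not the whole transcript, whose remaining 20283 bp at NEAT1, 7549 bp at MALAT1 and 2763 bp at NORAD held no peak.

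**Figure D2:**
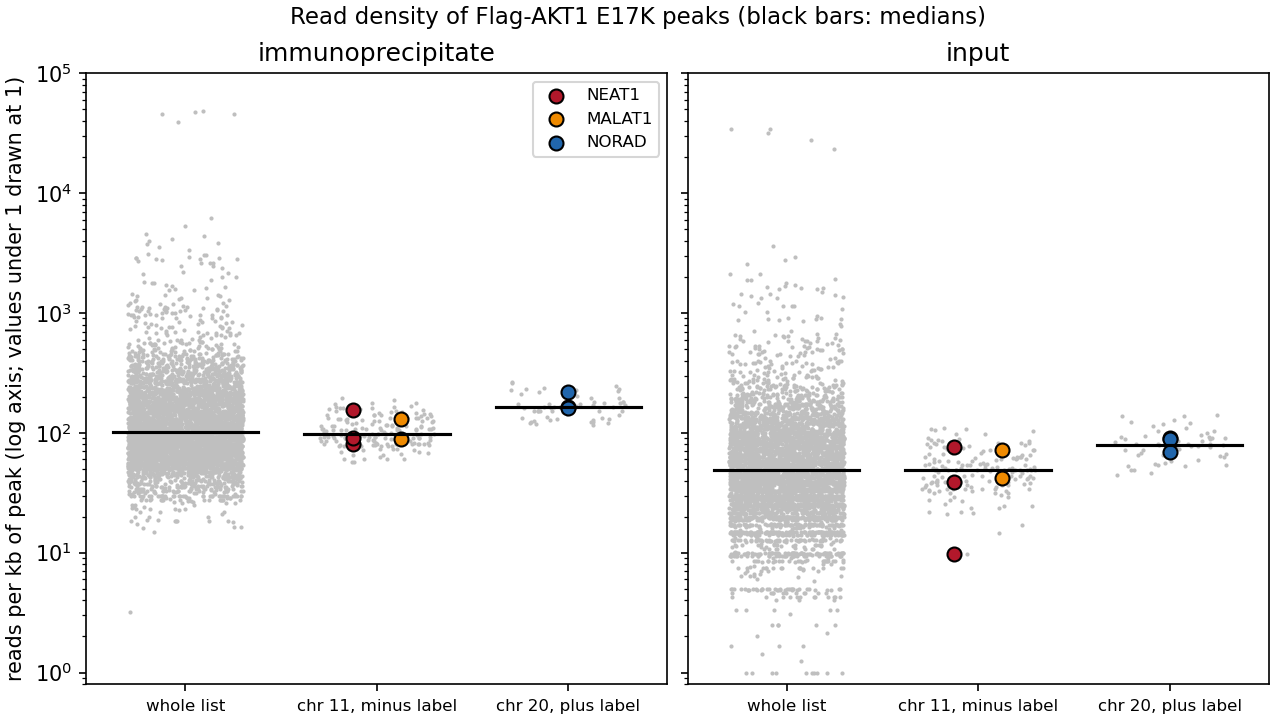
Reads per kb of peak (log axis, values under 1 drawn at 1) in the Flag-AKT1 E17K immunoprecipitate and input for the whole list, for chromosome 11 with the minus label and for chromosome 20 with the plus label, with black bars at the medians. In the immunoprecipitate the 5′ and middle NORAD peaks lie near the median of their own chromosome label, and the 3′ NORAD peak lies above it. That median is above the one of chromosome 11, and the 3′ NEAT1 peak is at the bottom of its column in the input.

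The authors' peak scores ordered these peaks in another way than the reads did. For each library the lists give a log odds score, whose base they do not state. The 3′ NEAT1 peak had a score of -11.0 in the immunoprecipitate and 12.5 in the control, at the percentile 0.207 of the list by immunoprecipitate score, although its fold, with low inputs set to 3, was at the percentile 99.9. The other NEAT1 peaks scored 26.1 and 4.19 in the immunoprecipitate, and the MALAT1 peaks 0.947 and 29.3 from 5′ to 3′. The NORAD peaks scored -2.01, -3.76 and -2.19 in the immunoprecipitate and 7.68, 13.0 and 8.12 in the control. A score below 0 in the immunoprecipitate with one above 0 in the control was found in 4 of the 8 members, 3 of them at NORAD, in 6.76% of the list, in 33 of the 57 peaks of chromosome 20 and in 27 of the 175 of chromosome 11 with the minus label. The authors' empirical false discovery rate differed from their p-value by more than 1e-09 in the same 4 members, with rates from 0.0173 to 0.0278. It did so in 2.83% of the list, in 39 of the 57 peaks of chromosome 20 and in 5 of the 175 of chromosome 11 with the minus label.

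**Figure D3:**
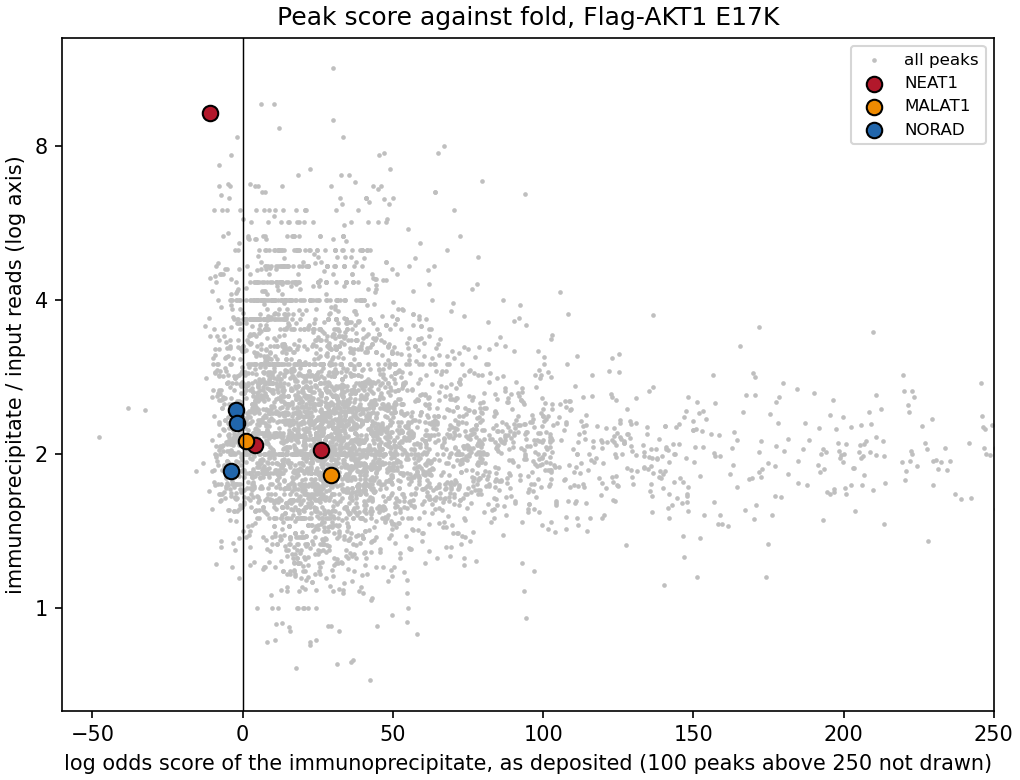
Fold (log axis, input counted as at least 3 reads) against the authors' log odds score of the immunoprecipitate for the Flag-AKT1 E17K peaks, without 100 peaks of a score above 250. The 3′ NEAT1 peak combines a fold of 9.25 with a score of -11.0, and the 3 NORAD peaks lie just below 0.

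The Flag-AKT1 WT list held no peak at NEAT1, MALAT1 or NORAD, and it held 0 peaks on chromosome 11 and 0 on chromosome 20, on either label. It therefore gives no read count for these lncRNAs, and their recovery on Flag-AKT1 WT was not analysed here. With 1 library per group, a difference between the plasmids could not have been tested against replicates.

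Of the genes that work with these lncRNAs, those with a peak in the Flag-AKT1 E17K list had folds from 1.54 to 2.96 there. In the whole annotation 8.52% of protein-coding genes had a Flag-AKT1 E17K peak, and 14% of those known to lie on a chromosome label with at least 10 peaks. Of 10 genes for paraspeckle proteins 2 had a peak in the Flag-AKT1 E17K list, HNRNPK (fold 1.90), which acts in the choice between the NEAT1 isoforms, and HNRNPH3 (fold 2.96). Of 7 genes for NORAD partners 2 had a peak, PRPF19 (fold 2.36), a splicing factor of the NORAD complex, and KHDRBS1 (fold 1.88), which encodes the RNA-binding protein Sam68. PUM2 had none. Of 9 genes for speckle proteins and MALAT1 processing 4 had a peak, the speckle organiser SON (fold 2.22) and the splicing factors SRSF3 (1.94), SRSF7 (1.78) and RNPS1 (1.54). None of these 8 genes passed Fisher's exact test against the list, with adjusted p-values from 0.0670 for PRPF19 to 1 for SRSF3. In the Flag-AKT1 WT list RBMX (483 immunoprecipitate and 567 input reads), SON (1016 and 1012) and SRSF3 (171 and 192) had peaks, in a list whose median fold was 0.976, and none passed the test. Peaks were spread unevenly over the chromosome labels, and 6 of the 10, 4 of the 7 and 7 of the 9 genes are known to lie on one with at least 10 Flag-AKT1 E17K peaks.

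Among other lncRNAs known as nuclear, 1 of 5 had a peak in the Flag-AKT1 E17K list, PVT1 (fold 2.17), and among those known as cytoplasmic 1 of 6, SNHG1 (fold 1.67). Of these genes, 0 of the 5 and 3 of the 6 are known to lie on a label with at least 10 peaks, and over all lncRNA genes of the annotation 0.747% had a peak, so the lists say little about the others. Of the genes near the 3 spans, LTBP3 (fold 1.46), which lies beyond MALAT1, had peaks, and FRMD8, EPB41L1 and CNBD2 had none. EPB41L1 and CNBD2 belong to the chromosome 20 label that held 0 peaks, so their lack of a peak says nothing about them. FRMD8 is on a label with peaks, but most protein-coding genes on such labels had none either. The labelled cell line was checked by its genes. All 7 genes taken as typical of MDA-MB-231 (VIM, CD44, CAV1, EGFR, AXL, SPARC and FN1) had a Flag-AKT1 E17K peak, and 0 of 6 luminal epithelial genes (ESR1, PGR, GATA3, FOXA1, EPCAM and CDH1) had one. Of the former all 7, and of the latter 3, are known to lie on a label with at least 10 peaks. Over all protein-coding genes 8.52% had a Flag-AKT1 E17K peak, and 14% of those on such labels. The 0 of 6 luminal genes is near that share and says little about them. In the Flag-AKT1 WT list 0 of the 7 and 0 of the 6 had a peak, and 0 of the 7 and 1 of the 6 lie on such a label there. Over all protein-coding genes 1.37% had a Flag-AKT1 WT peak, and 10.5% of those on such labels, so these counts say little about either set.

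The 3 genes whose summed fold lay nearest to that of each lncRNA were listed, over 2 libraries and 1028 genes with at least 20 input reads in peaks of their own. For NEAT1 these were POLD2 (452 and 192 reads), SNAI2 (73 and 31) and RPL27 (139 and 59), with folds of 2.35 to 2.36. For MALAT1 they were CNIH4 (81 and 42), OSER1 (108 and 56) and EXT1 (569 and 295), each with a fold of 1.93. For NORAD they were STAM and ZNF3 (each 123 and 59) and CDK1 (75 and 36), each with a fold of 2.08. All 9 are protein-coding genes, and a ratio this close to the list median is shared by many genes.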

How the data were processed

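The members, lists and tests were chosen with earlier results of these data known. RIP-seq lists of 2 plasmids were analysed, 1 immunoprecipitate and 1 input library each. The authors deposited whole-number read counts per peak without normalization, a log odds score, and a p-value, adjusted p-value and empirical false discovery rate per peak. The submitters' processing notes name Bowtie2 2.2.8 and hg18. The peak caller and its filters are not given in the sources used here. Library totals are unknown, and depth is known inside peaks only: 11 to 19041 immunoprecipitate and 0 to 13668 input reads per Flag-AKT1 E17K peak. The control column was taken as the input library, although the series text also mentions control IgG. All folds depend on this reading.

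Peaks were set against RefSeq gene spans (GRCh38.p14, introns included), and gene strands were taken from the RefSeq start sites where these have 1 strand. The named genes are the members, the fixed lists of related genes, and the 3 genes of nearest fold. Some genes of the lists are not reported here. In folds, inputs under 3 reads were set to 3. Fisher's exact tests (scipy 1.17.1) were adjusted by Benjamini-Hochberg over all peaks or genes at 0.05 and tested on simulated data. The simulated counts had binomial error only, without the extra spread of the list. The tests compare libraries, and their intervals cover counting error. Alternatives were an overlap of at least 0.5 of the peak, an adjusted p of the authors of at most 0.001, a fold of at least 4, the median fold as reference, no AKT1 peaks, the same chromosome label only, no peaks with 3 or fewer input reads, merged peaks, each nuclear lncRNA alone, and no peak of highest fold. To leave out the 3′ NEAT1 peak was chosen after seeing the data. Python 3.11.15, numpy 2.4.6, pandas 2.3.3 and matplotlib 3.10.9 were used.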

Additional observations from a re-analysis of the deposited data

How the results depend on the processing

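With a fold of at least 4, 1 of the 8 member peaks was left. No peak or gene of NEAT1, MALAT1 or NORAD passed the threshold under any alternative that was run, so the changes of direction are all among values that were not called. Against the median fold of the list the ratio of the 5′ NEAT1 peak was 0.932, of the middle NEAT1 peak 0.953 and of the 5′ MALAT1 peak 0.970. The 5′ NEAT1 peak was at 0.986 without the AKT1 peaks and at 0.983 against its own chromosome label. The ratio of all immunoprecipitate to all input reads of the list was 1.95, and 2.06 without the AKT1 peaks. The ratio of nuclear to cytoplasmic lncRNAs was 0.925 with MALAT1 alone, 0.990 without the peak of highest fold of each gene and 0.962 without the 3′ NEAT1 peak, the last chosen after seeing the data. The cause of the other changes was not tested. No paired analysis was possible because each group has 1 library. The 4 input reads of the 3′ NEAT1 peak set the width of its interval.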
